A study of Mus musculus with 12 samples.

Results

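Serpinb3a upper suprabasal keratinocytes of the mouse paw epidermis were the 9562 cells, of 125515 cells kept (7.62%), that carried the keratins of differentiating layers together with Serpinb3a transcripts but had few transcripts of the Lce1 genes of the outermost living layer. The members were chosen by their measured UMIs (unique molecular identifiers, each counting 1 captured transcript). A member had 500 to 6000 detected genes and at most 5% mitochondrial UMIs, at least 1% of its UMIs from Krt1 and Krt10, at least 1 Serpinb3a UMI, and fewer than 3 Krt9 UMIs. Genes starting with Lce1 gave under 0.5% of its UMIs (0.11% to 43.2% of the members of a mouse had none), Hist1h1b, Hist1h1a, Pclaf and Esco2 together under 3 UMIs, as did Ube2c, Cenpf, Ccnb1 and Cdc20, and Cd74 and Cd3e gave none. Because these counts, and with them the whole profile of each cell, chose the members, differences between members and other cells are described below without a test, while diet and sex were compared over mice. Of the cells that met every other criterion, 47541 in all, the members were those with Serpinb3a, and the remaining 37979 are called Serpinb3a-zero suprabasal cells.

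Keratinocytes of the epidermis divide in the basal layer, attached to the basement membrane, and then move outward while they differentiate. In the suprabasal layers they replace Krt5 and Krt14 with Krt1 and Krt10, and in the upper, granular layer they make the proteins and lipids of the cornified envelope, such as loricrin (Lor), filaggrin (Flg) and the small proline-rich proteins, before they lose their nuclei. Serpinb3a belongs to a cluster of intracellular protease inhibitors of the serpin family, Gjb2 encodes the gap junction protein connexin 26, Sprr1b a small proline-rich envelope precursor, Slc5a1 the sodium-coupled glucose cotransporter SGLT1, and Wfdc17 a secreted protein with a whey acidic protein (WAP) domain.

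The hind paw epidermis of wild-type C57BL/6J mice was compared between animals fed a regular diet (RD, with 11% fat) and animals fed EnvigoTD88137, a diet with 42% fat (HFD), each for 10 weeks. Males and females were studied on both diets, with 3 mice in each of the 4 groups and 1 droplet library per mouse. The mice were 16 to 18 weeks old when the glabrous skin was taken, and the epidermis was separated with Dispase and dissociated with TrypLE, so that the cells are those that survive this release. A mouse contributed between 412 and 1398 members with 8394334 to 28028452 UMIs, and the median member held between 12265.5 and 25027 UMIs.

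All male libraries were counted with another version of the counting software than the female libraries, according to the file headers, so sex and software cannot be told apart. Male RD replicate 2 had the shallowest members, and for males the number of genes called, the share of members and the gene lists are also given without it. Expression of Xist and Ddx3y matched the labelled sex in every library. At most 2 member barcodes were shared by any pair of libraries, and 11 of 9551 distinct member barcodes occurred in more than 1 library. Doublet scores in the highest range were found for 2.60% to 10.2% of the members of a mouse, against 5.28% to 13.2% of its cells kept.

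In the files the marker genes are Serpinb3a (ENSMUSG00000044594, GRCm38, chr1:107045587-107052303, minus strand), Gjb2 (ENSMUSG00000046352, chr14:57098600-57104702, minus strand), Sprr1b (ENSMUSG00000048455, chr3:92436809-92438789, minus strand), Slc5a1 (ENSMUSG00000011034, chr5:33104219-33162870, plus strand) and Wfdc17 (ENSMUSG00000069792, chr11:83703991-83706268, plus strand). Serpinb3a has close copies beside it: over their longest transcripts it shares 93.1% of aligned bases with Serpinb3b, 92.1% with Serpinb3c and 89.2% with Serpinb3d. Reads that fit more than 1 copy could not be assigned with certainty, so the Serpinb3a count is uncertain to that extent. The 200 bases from 250 to 51 bases before the RefSeq start (GRCm38.p6) are printed for Serpinb3a, the gene that chose the members, and for Sprr1b, the only one of these 5 genes whose stretch held either motif searched. They lie on the minus strand at chr1:107052354-107052553 and chr3:92438830-92439029. Capitals mark a match to the AP-1 letters TGANTCA, which start 111 bases before the Sprr1b start.
Serpinb3a: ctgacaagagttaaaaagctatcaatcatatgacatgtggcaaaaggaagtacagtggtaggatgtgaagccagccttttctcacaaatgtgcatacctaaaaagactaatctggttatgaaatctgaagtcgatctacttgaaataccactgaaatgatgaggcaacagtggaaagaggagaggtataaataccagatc
Sprr1b: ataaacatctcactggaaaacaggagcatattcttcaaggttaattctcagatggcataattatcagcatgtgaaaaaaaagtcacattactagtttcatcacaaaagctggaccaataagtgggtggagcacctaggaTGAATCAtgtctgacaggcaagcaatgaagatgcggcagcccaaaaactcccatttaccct
On either strand the AP-1 letters were found in 5.57% of the 32851 stretches of this kind, and the letters AACNGGTT of the Grhl factors, which none of the 5 genes held, in 1.42%. A match describes the letters and is not a bound site.

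The label fits the members' markers: Gjb2, Sprr1b, Slc5a1 and Wfdc17 were each higher in members than in basal cells and in Serpinb3a-zero cells of the same mouse, in 12 of 12 mice. Gjb2 ranged over mice from 326 to 820 CPM in members (CPM are the UMIs of a gene per 1000000 UMIs of the class), from 54.4 to 203 CPM in Serpinb3a-zero cells and from 7.16 to 26.5 CPM in basal cells, which were set as Krt5- and Krt14-rich cells with little Krt1 and Krt10. Sprr1b lay between 1879 and 3637 CPM in members, between 716 and 1160 CPM in Serpinb3a-zero cells and at most at 37.8 CPM in basal cells. Slc5a1 lay between 121 and 234 CPM in members and between 52.6 and 73.1 CPM in Serpinb3a-zero cells. Wfdc17 varied more among mice, from 980.4 to 6572 CPM in members against 158 to 871 CPM in Serpinb3a-zero cells. For none of these 4 genes did the members of any mouse reach down to the Serpinb3a-zero cells of any mouse.

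Members were also deeper than Serpinb3a-zero cells, whose median depth per mouse was 7396 to 16095.5 UMIs, and a deeper cell is more likely to show 1 Serpinb3a UMI. With every cell thinned to 3000 UMIs, 48.3% to 73.8% of the members of a mouse still had a Gjb2 UMI, against 10.1% to 24.6% of its Serpinb3a-zero cells, 1.67% to 4.15% of basal cells and 0.66% to 9.30% of Langerhans cells, which should lack it. Without thinning these Gjb2 shares were 81.5% to 92.4% in members and 3.03% to 8.26% in basal cells. Serpinb3a itself, required in every member, was left in 37.1% to 52.1% of members after thinning. The limit of 1 UMI therefore does not separate cells with the gene from cells without it, and the Serpinb3a-zero class holds cells in which the transcript was not captured.

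**Figure D1:**
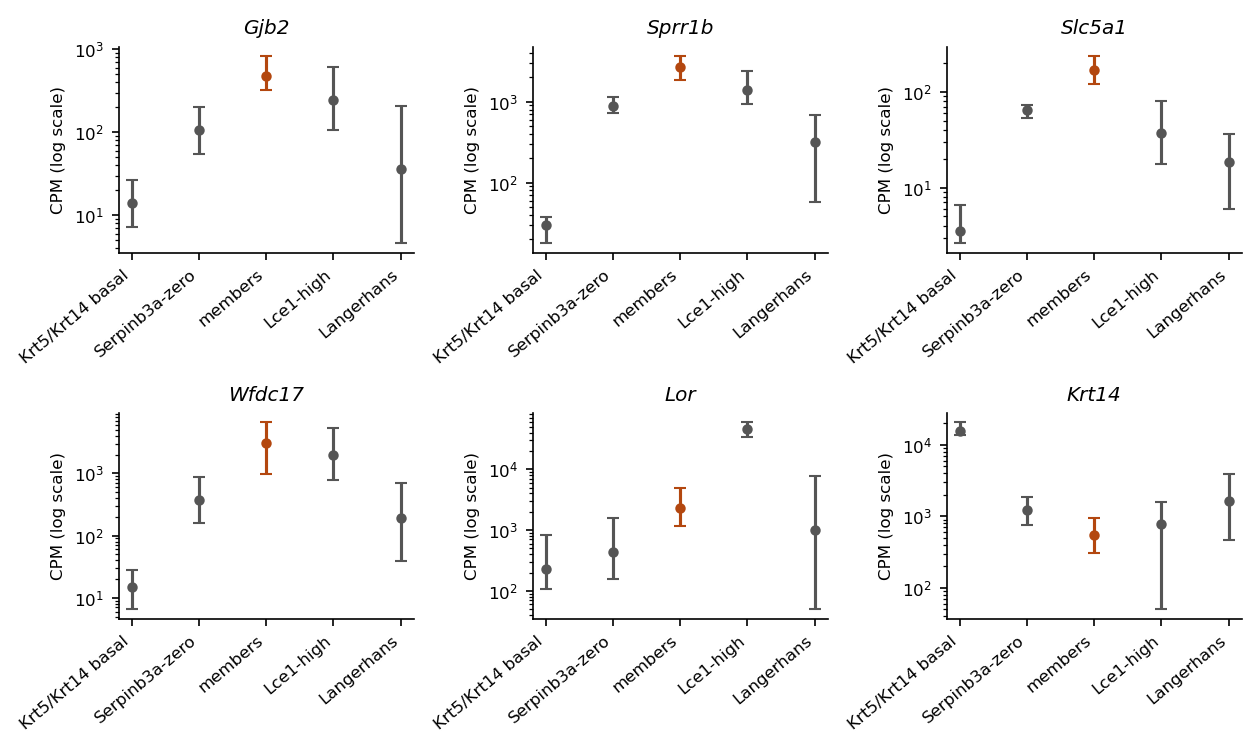
CPM on a log scale for 6 genes in 5 classes of cells: points are medians over 12 mice, and bars run from the lowest to the highest mouse. Gjb2, Sprr1b, Slc5a1 and Wfdc17 have their highest median in members, Lor in Lce1-high cells (median 45549 CPM) and Krt14 in basal cells (median 15816 CPM).

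Compared with Serpinb3a-zero cells, members were further along in differentiation by the genes that led in each direction. Of the 15 genes with the largest excess, Wfdc21 (median log2 ratio 3.84) and Wfdc12 (3.41) are WAP-domain proteins like Wfdc17 (2.99), and Serpina12 (3.14) is a secreted serpin. Klk7 (3.02) encodes a kallikrein that cleaves corneodesmosomes, Hal (3.00) the histidase that makes urocanic acid, and Cnfn (2.95) and Hrnr (2.85) proteins of the cornified envelope. Secreted signals were among them too: Il1f5 (2.92) encodes the antagonist of the interleukin 36 receptor, Slurp1 (2.88) a Ly6-type secreted protein, and Ereg (2.86) the EGF receptor ligand epiregulin. Lypd5 (3.20), Nccrp1 (3.18), Ly6m (3.09) and Dnase1l3 (2.84) completed the set. Each was higher in 12 of 12 mice, as the rule for naming required.

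The genes that led in the other direction belong to the basal side of the tissue. Col17a1 (-1.84), Dst (-1.81) and Itga6 (-1.66) build the hemidesmosome, Dsg3 (-1.89) is the desmoglein of the lower layers, and Ccnd1 (-1.84) encodes cyclin D1. Igfbp2 (-2.04), an IGF-binding protein, and the metallothionein Mt2 (-1.86) stood with them. Igfbp2 had a median of 68.0 CPM in members, 270.3 CPM in Serpinb3a-zero cells and 758 CPM in basal cells.

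The gene lists differed in how many of their genes were higher in members. Genes of the rule, Serpinb3a among them, were left out of these counts. The serpin list still holds its close copies Serpinb3b, Serpinb3c and Serpinb3d. Their reads cannot be told apart from those of Serpinb3a with certainty, so the serpin count is not free of the rule. All 10 other serpins at 10 CPM or more in either class were higher in 12 of 12 mice (median log2 ratio 1.74), as were all 6 such small proline-rich genes (2.02), 22 of 25 genes of the late cornified envelope (2.09) and 21 of 22 barrier lipid enzymes (0.99). Over all 6967 genes at that level, 22.8% were higher and 52.3% lower in every mouse, with a median of -0.20. Higher in every mouse were also 10 of 17 differentiation transcription factors (median 0.49, 2 lower), 7 of 12 WAP and antimicrobial genes (1.63) and 1 of 4 stress keratins (0.03). Among the connexins named here, Gjb2 (2.29), Gjb6 (2.28) and Gjb5 (0.86) were higher in all mice, whereas Gja1 (-0.12), the connexin 43 gene, was higher in 1 of 12. Of 17 genes for glucose transport and glycolysis only Slc5a1 and the aldolase gene Aldoc (0.44) were higher in every mouse and 9 were lower, with a median of -0.17, close to that of all genes. No gene of the basal list was higher in every mouse, and 11 of 12 were lower (median -1.29).

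Lce1-high cells met the same limits except that Lce1 genes gave 0.5% of their UMIs or more and that no Serpinb3a UMI was required, so that the members differ from them in both respects. They were few, with 10 to 179 cells per mouse and 733 in all. Members exceeded them in Slc5a1 (median log2 ratio 2.19), in the lipid enzymes Mvd (1.96), Sptlc3 (1.95) and Scd2 (1.78), of cholesterol, sphingolipid and fatty acid synthesis, in the tubulins Tubb2a (1.89) and Tubb2b (1.89), and in Rbp2 (1.89), a retinol-binding protein. Dsg1b (1.72), Twsg1 (1.70) and Il1rn (1.70) followed. Over all 2554 genes outside the rule at 50 CPM or more in either class, 58.3% were higher and 16.2% lower in members in every mouse. Their median log2 ratio was 0.69. Lce6a (-7.65), Kctd4 (-6.69), Aif1l (-6.68), Gm2a (-6.53) and the protease inhibitor Spink7 (-6.24) were close to absent from members, with medians between 1.07 and 3.66 CPM. Slc5a1 thus had its highest median in members, between a lower level in Serpinb3a-zero cells and a lower one in Lce1-high cells.

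The members were not uniform. A split by the share of UMIs from Lor, chosen after the values were seen, put 7176 members under 0.1%, 1654 between 0.1% and 1%, and 732 at 1% or more. The last group made up 4.09% to 11.7% of the members of a mouse, and its median depth, 10678 to 25239 UMIs over mice, overlapped that of the first, 12191 to 25027 UMIs. Flg rose with Lor, from a median over mice of 66.9 CPM to 1929 and 18324 CPM. Cnfn followed with 642, 1734 and 3294 CPM, and Sbsn, a secreted protein of upper layers, with 2680 to 10215 CPM between the first and the last group. Gjb2 had its step between the first group (410 CPM) and the second (901 CPM) and stayed there in the last (871 CPM).

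Other genes fell where Lor was high. Slc5a1 had medians of 169, 209 and 95.9 CPM and was lower in the last group than in the first in 12 of 12 mice. Il34, the ligand that maintains Langerhans cells, went from 44.1 CPM in the first group to 8.79 and 6.15 CPM, and the stress keratin Krt16 from 603 to 422 and 167 CPM, both in 12 of 12 mice. Krt14 had 543, 544 and 359 CPM and was lower in the last group than in the first in 11 of 12 mice. Gjb2, Sprr1b (2399, 3939 and 4331 CPM) and Wfdc17 (1955, 6105 and 7159 CPM) were instead higher in the last group than in the first in 12 of 12 mice.

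**Figure D2:**
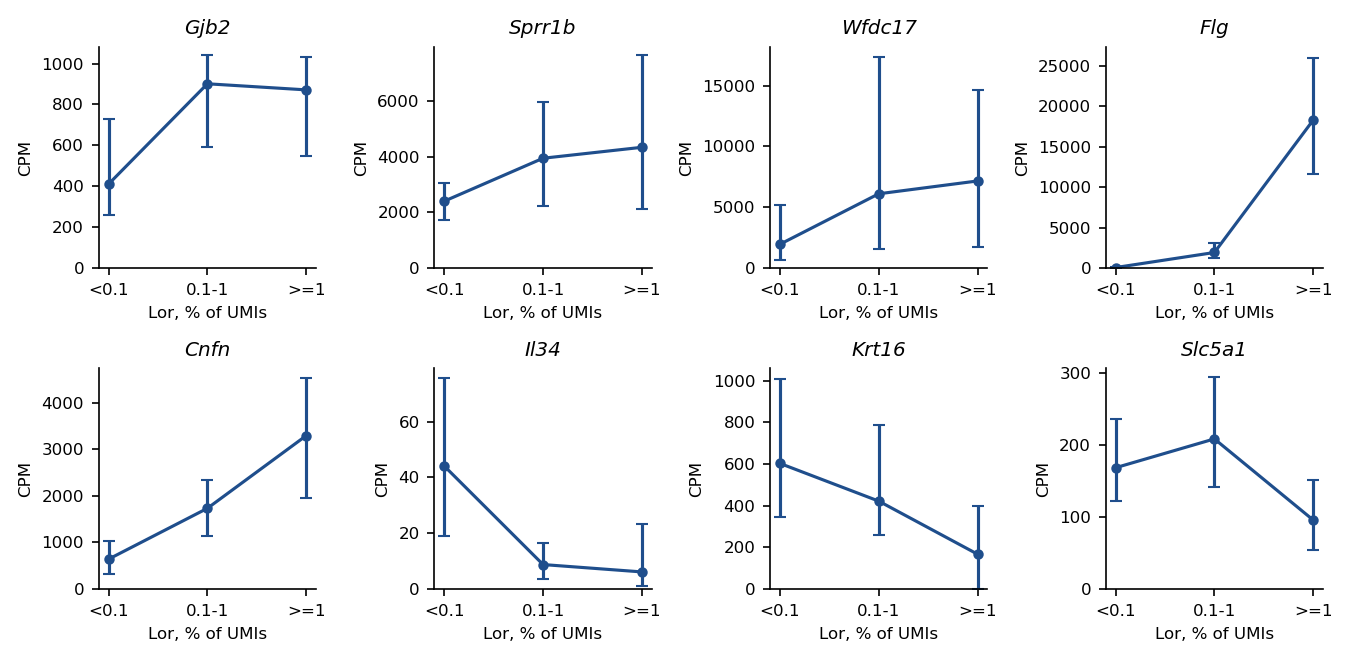
CPM of 8 genes in members split by the share of UMIs from Lor (under 0.1%, 0.1% to 1%, 1% or more): points are medians over 12 mice and bars run from the lowest to the highest mouse. Flg climbs from a median of 66.9 to 18324 CPM, while Il34, Krt16 and Slc5a1 have their lowest median at 1% or more.

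Members also varied with the number of Serpinb3a UMIs. In a mouse, 23.8% to 49.8% of members had 1 such UMI and 28.4% to 63.1% had 3 or more, with the most in 1 cell at 70. The next values are over all cells that met the rest of the rule, thinned to 3000 UMIs. Sprr1b had medians of 998, 2808, 3354 and 3727 CPM in cells with 0, 1, 2 and 3 or more Serpinb3a UMIs, and Gjb2 of 127, 472, 641 and 675 CPM. The 42171 cells at 0 hold Serpinb3a-zero cells beside members that lost their Serpinb3a UMIs to thinning. A contrast with 0 is therefore not one within members, and it is split on the gene of the rule. Both were higher at 3 or more than at 0 in 12 of 12 mice, but rose at every step in 7 of 12 mice for Sprr1b and 6 of 12 for Gjb2. Krtdap, a secreted product of suprabasal cells, was lower at 3 or more in 12 of 12 mice (5058 against 6339 CPM), and Krt14 in 11 of 12 (229 against 1175 CPM). At the limits of the rule, the 3266 members with 1 Serpinb3a UMI had 393 CPM of Gjb2, against 124 CPM in the cells with none. The 57 members with the least Krt1 and Krt10, just above 1% of their UMIs, had 26348 CPM of Lor and 13.7 CPM of Slc5a1, unlike the members as a whole. The same cells had 4245 CPM of the basal keratin Krt14, 139 CPM of Gjb2, 832 CPM of Sprr1b and 3023 CPM of Wfdc17. The 14 members with Lce1 genes at 0.4% to 0.5% had 37389 CPM of Lor, close to the 40168 CPM of the 14 cells just past that limit.

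The share of members went in opposite directions with the diet in the sexes. Members made up 10.2%, 5.65% and 8.95% of the cells kept in the 3 male RD mice and 13.7%, 11.6% and 9.48% in the male HFD mice. The male groups overlapped, with means of 8.28% ± 2.37 and 11.6% ± 2.09 (SD, n = 3 each, two-sided exact permutation p = 0.2). In female RD mice the shares were 6.23%, 7.87% and 6.79%, and in female HFD mice 5.19%, 4.46% and 4.59%. All female HFD mice lay below all female RD mice, with means of 4.75% ± 0.39 and 6.96% ± 0.83 (SD, n = 3 each, two-sided exact permutation p = 0.1, the smallest that 3 against 3 allow). The diet effect was 5.52 percentage points greater in males than in females (exact permutation of the diet within each sex, 400 relabellings, p = 0.01), a test added after the shares were seen. The median depth of members was 12265.5 to 20461 UMIs in male RD and 19890 to 25027 UMIs in male HFD mice, and depth raises the chance of a Serpinb3a UMI. With cells thinned to 3000 UMIs the difference between the sexes in the diet effect was 3.11 points (exact permutation p = 0.01), and without male RD replicate 2 the male difference went from 3.31 to 1.99 points. As a share of the cells that met the rest of the rule, members made up 19.1% ± 4.70 in male RD and 26.5% ± 2.96 in male HFD mice without overlap (SD, n = 3 each, two-sided exact permutation p = 0.1), and 20.1% ± 2.26 and 15.2% ± 0.86 in females, also without overlap (SD, n = 3 each, exact permutation p = 0.1). On that scale the diet effects differed between the sexes by 12.3 points (exact permutation p = 0.005). A share rests on the other cells released from the same skin as well as on the members.

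The level of Serpinb3a within members is bounded from below by the rule, so its difference with diet was taken over all cells that met the rest of the rule. There Serpinb3a had 60.2, 35.1 and 52.9 CPM in male RD mice and 96.5, 74.8 and 67.4 CPM in male HFD mice. In female RD mice it had 67.2, 92.3 and 72.2 CPM, and in female HFD mice 49.0, 44.2 and 41.6 CPM. The groups did not overlap in either sex: HFD was 1.61 times RD in males and 0.58 times RD in females (two-sided exact permutation p = 0.1 in each, n = 3 each). The male and female diet effects differed by 1.48 on the log2 scale (exact permutation of the diet within each sex, p = 0.005, the smallest the 400 relabellings allow). As this measurement was added after the shares were seen and uses the same UMIs, it describes the same pattern and is no independent support for it.

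Wfdc17 moved the same way as Serpinb3a over these cells. It had 688, 394 and 435 CPM in male RD mice, 955, 1232 and 744 CPM in male HFD mice, 2263, 2185 and 2388 CPM in female RD mice and 1062, 1448 and 1392 CPM in female HFD mice. No RD mouse overlapped the HFD mice of its sex, with ratios of 1.93 in males and 0.57 in females. The difference between the sexes was 1.79 on the log2 scale (exact permutation p = 0.005). Gjb2 (HFD over RD 1.20 in males, 0.70 in females) and Slc5a1 (1.13 and 0.79) overlapped between diets in males and did not in females. Their diet effects differed between the sexes by 0.78 (exact permutation p = 0.02) and 0.52 (p = 0.04, exact permutation) on the log2 scale. Sprr1b showed no such difference beyond the spread between mice (0.25, exact permutation p = 0.37). Adjusted over these 5 markers by Benjamini-Hochberg, the permutation p of the difference between the sexes was 0.0125 for Serpinb3a and Wfdc17, 0.0333 for Gjb2, 0.05 for Slc5a1 and 0.37 for Sprr1b. All 5 were higher in members than in Serpinb3a-zero cells, so their levels over both classes also move with the share of members and are no independent support for its pattern. Within members the difference between the sexes was not called for Gjb2 (edgeR adjusted p = 0.123), Slc5a1 (edgeR adjusted p = 0.190) or Wfdc17 (edgeR adjusted p = 0.0519).

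**Figure D3:**
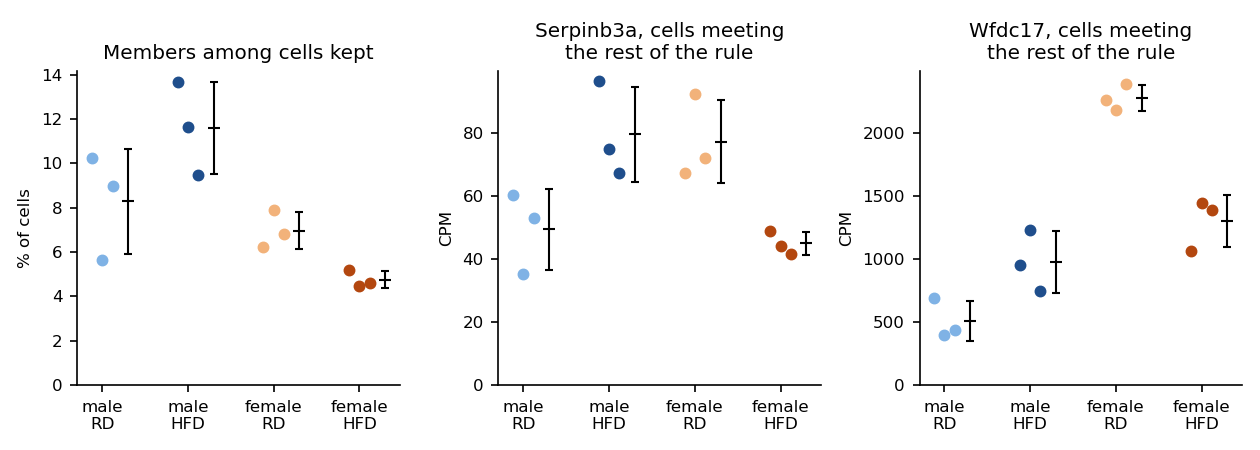
Points are single mice and bars the mean and SD of 3 mice per group: members as a percentage of cells kept, and CPM of Serpinb3a and Wfdc17 over all cells that met the rest of the rule. Female HFD mice lie below female RD mice in each panel, and male HFD mice above male RD mice except in the share of members, where they overlap.

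Within members, no gene passed an adjusted p of 0.05 with diet in males. With UMIs summed per mouse, edgeR's quasi-likelihood test called 0 of 11328 genes (0.0%), although 1190 had an unadjusted p under 0.05. DESeq2 called 66 genes, and without male RD replicate 2 edgeR called 46, of which 38 were higher in HFD. The genes with the smallest p are therefore given as values. Il1f6, an interleukin 36 cytokine, had 94.8, 97.4 and 115 CPM in RD and 142, 155 and 162 CPM in HFD mice (log2 fold change 0.63 ± 0.09 SE, edgeR adjusted p = 0.136). Cited2 (0.61), Klhl21 (0.67) and Dusp5 (0.48), which encodes a phosphatase of MAP kinases, stood with it on the positive side. On the negative side were the kallikrein Klk10 (-0.51), the leukotriene receptor Ltb4r2 (-0.42), Igfbp2 (-0.65), Mrpl36 (-0.36) and Pmp22 (-0.70), with edgeR adjusted p from 0.186 to 0.219. Igfbp2 had 80.1, 70.2 and 83.4 CPM in RD and 36.9, 48.5 and 58.1 CPM in HFD mice, so the groups did not overlap. Of all genes tested in males, 4.99% were higher and 12.5% were lower in every HFD mouse than in every RD mouse.

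In females 60 of 11630 genes (0.516%) passed the same test with diet, 36 higher and 24 lower in HFD, and DESeq2 called 166. The 24 include Serpinb3a, whose level in members is bounded by the rule, so its call is no result about the members. The calls rested on few mice: without female RD replicate 1, 2 or 3 there were 5, 6 and 13 calls, and without female HFD replicate 3 there were 11. Without female HFD replicate 1 or 2 there were 59 and 52 calls, of which 28 and 31 were among the 60. Krt15, S100a9, Slc39a10 and Skint1 kept an adjusted p under 0.05 whichever of the 6 female mice was left out. With cells thinned to 3000 UMIs, which leaves fewer UMIs to test, there were 3 calls, 2 of them among the 60, and of these 4 genes S100a9 kept the call and Krt15, Slc39a10 and Skint1 lost it. The summed CPM of heat shock and immediate early genes, which respond to tissue dissociation, was 14261, 14182 and 16448 in female RD members and 17324, 16279 and 17341 in female HFD members, so that it was higher in HFD on average with an overlap, and its part in the female differences was not tested.

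The alarmins S100a8 and S100a9, which form calprotectin, fell most among the called female genes with a mean of at least 10 CPM and no overlap. S100a9 had 158, 96.0 and 66.1 CPM in female RD members and 15.4, 20.0 and 23.3 CPM in female HFD members, a log2 fold change of -2.48 ± 0.27 (SE, edgeR adjusted p = 0.00654). S100a8 had 174, 87.8 and 59.8 CPM against 22.4, 33.4 and 39.2 CPM (-1.79 ± 0.33, edgeR adjusted p = 0.0442, 0.132 without female HFD replicate 3). The RD mice differed among themselves more than the HFD mice did, but the groups did not overlap for either gene. In male members S100a9 stayed between 0.68 and 12.5 CPM. S100a9 was not limited to members: it reached 396 CPM in the Langerhans cells and 56.7 CPM in the basal cells of female RD replicate 2, and 1.10 and 6.38 CPM in those of female RD replicate 1, where members had most. The part of RNA from other cells in these levels was not tested. Rptn, the envelope protein repetin, had 27.7, 38.3 and 28.2 CPM in RD and 15.4, 14.1 and 5.47 CPM in HFD (-1.44 ± 0.26, edgeR adjusted p = 0.0416, 0.153 without female RD replicate 1).

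Mt2 encodes a metallothionein, a small protein that binds zinc and other metals. It had 238, 240.5 and 206 CPM in female RD members and 126, 164 and 127 CPM in HFD members (-0.74 ± 0.10 SE, edgeR adjusted p = 0.0108, 0.0687 without female RD replicate 1). Its sister gene Mt1, named after its values were seen, had 696, 566 and 610 CPM against 379.7, 499 and 379.8 CPM (-0.60, edgeR adjusted p = 0.0373). Slc39a10, a zinc importer, had 9.33, 7.18 and 9.21 CPM in RD and 18.1, 19.3 and 19.5 CPM in HFD (1.12 ± 0.13 SE, edgeR adjusted p = 0.00665). Its groups were far apart, while in males RD (8.81 to 13.1 CPM) and HFD (7.76 to 11.3 CPM) overlapped. The zinc exporter Slc30a1, also named after its values were seen, had 37.3, 39.9 and 38.1 CPM against 28.8, 31.9 and 27.6 CPM and missed the threshold (-0.42, edgeR adjusted p = 0.0502), while its diet effect differed between the sexes (0.65, edgeR adjusted p = 0.022). These differences were not particular to members: Slc39a10 had 12.8 to 14.4 CPM in RD and 22.3 to 24.5 CPM in HFD among female Serpinb3a-zero cells, and in female basal cells its 27.8 to 30.4 CPM in HFD lay above every RD mouse. Mt2 likewise had 1520 to 1785 CPM in RD and 889 to 1113 CPM in HFD among female basal cells. Other zinc transporters and metallothioneins were not counted, and nothing is said of zinc genes as a group.

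Krt15, a keratin of basal cells, had 19.7, 25.3 and 20.5 CPM in female RD members and 66.3, 49.4 and 63.7 CPM in female HFD members (1.43 ± 0.14 SE, edgeR adjusted p = 0.00215). It also did not overlap between diets in female Serpinb3a-zero cells, with 33.5 to 41.4 CPM in RD and 58.4 to 60.4 CPM in HFD and no test. In female basal cells it had 608 to 918 CPM in RD and 924 to 1363 CPM in HFD. The summed CPM of the basal list, of which Krt15 is a member, overlapped between diets, with 569 to 971 CPM in RD and 707 to 1008 CPM in HFD. The part of RNA from basal cells in the Krt15 of members was not tested. Skint1, a selector of dendritic epidermal T cells, had 52.4, 56.5 and 56.5 CPM in female RD and 32.3, 32.2 and 29.3 CPM in female HFD members (-0.84 ± 0.08 SE, edgeR adjusted p = 0.00215). In males it lay between 7.81 and 11.4 CPM with no separation. Hlf, a circadian transcription factor, fell from 60.3, 63.0 and 63.5 CPM to 28.1, 36.7 and 41.7 CPM (-0.85, edgeR adjusted p = 0.0212, 0.0687 without female RD replicate 1).

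Of the other genes named by the rule in females, Zranb2 (0.76), Srrt (0.67) and Mplkip (0.69), of which the first encodes a splicing factor, rose, as did Apba3 (0.73), Marcksl1 (0.68) and 4732471J01Rik (0.68), with edgeR adjusted p from 0.0119 to 0.0477. The taurine transporter gene Slc6a6 (-0.80, edgeR adjusted p = 0.0276) and Abcc4 (-0.70, edgeR adjusted p = 0.0360), a transporter of cyclic nucleotides and other anions, fell. None of these 8 genes kept the call whichever female mouse was left out: Mplkip and Slc6a6 kept it in 3 of the 6 fits, Zranb2 in 2, 4732471J01Rik, Marcksl1 and Abcc4 in 1, and Apba3 and Srrt in 0. Among all genes tested in females, 13.6% were higher and 7.91% were lower in every HFD mouse than in every RD mouse.

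**Figure D4:**
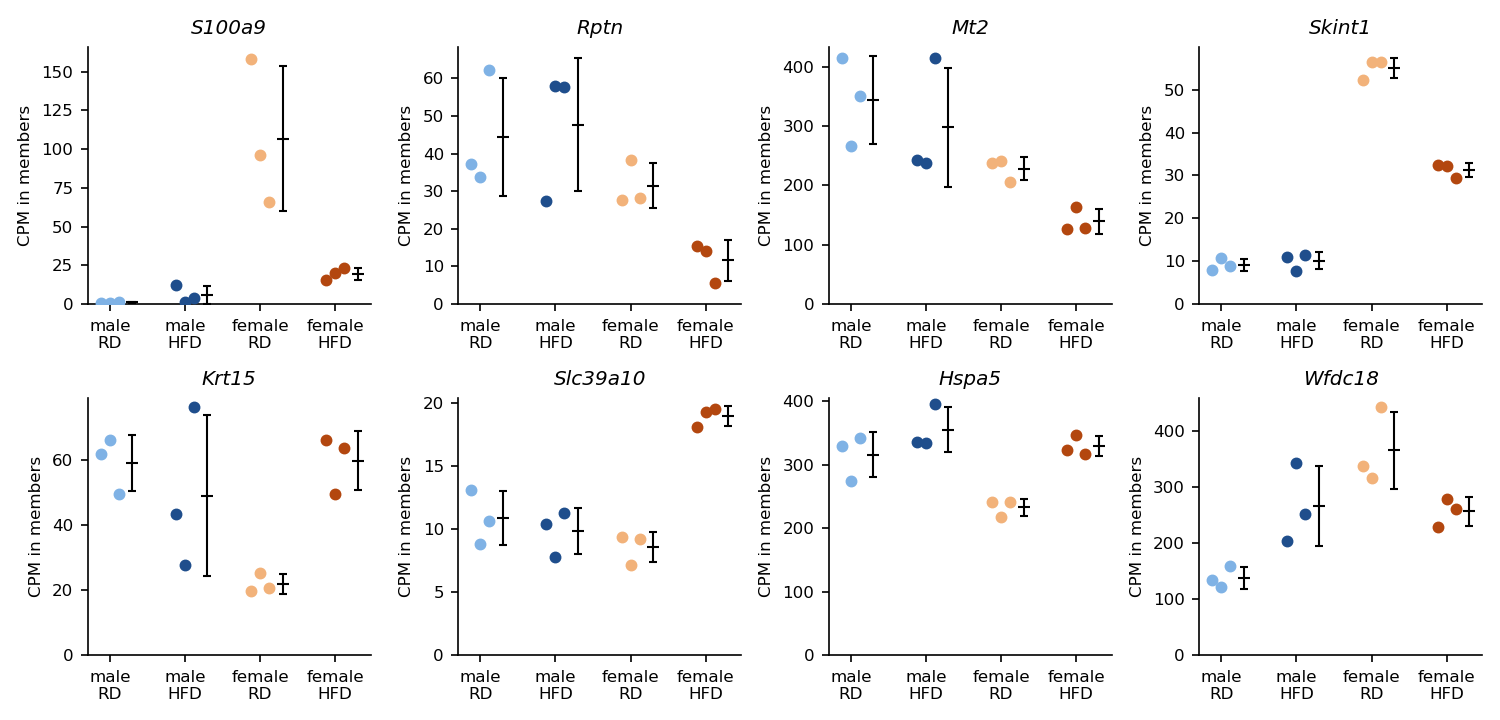
CPM of 8 genes summed over the members of each mouse: points are mice, and bars the mean and SD of 3 mice. In females S100a9, Rptn, Mt2 and Skint1 are lower and Krt15, Slc39a10 and Hspa5 higher in HFD without overlap, and Wfdc18 is higher in male HFD and lower in female HFD mice.

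The difference between the sexes in the diet effect was tested itself, over all 12 mice. It passed for 32 of 12249 genes (0.261%), 21 with the more positive effect in males. The 21 include Serpinb3a, the gene that chose the members. Without female RD replicate 1 or female HFD replicate 1 edgeR called 0 genes, at 1561 and 1848 unadjusted p under 0.05 (DESeq2, with all mice, called 121). Without male RD replicate 2 there were 243 calls, which held all 32. Leaving out male HFD replicate 3 or female HFD replicate 2 gave 44 and 24 calls, and leaving out any other single mouse 1 to 8. Wfdc18, another WAP-domain gene, had 133, 121 and 158 CPM in male RD and 203, 344 and 253 CPM in male HFD members, but 337, 316 and 443 CPM in female RD and 229, 280 and 261 CPM in female HFD members. The diets did not overlap in either sex and went opposite ways (difference of effects 1.57 ± 0.24 SE, edgeR adjusted p = 0.022). It was called in 9 of 12 fits that left out 1 mouse, and had an adjusted p of 0.075 without female HFD replicate 3. Cyp26b1, which degrades retinoic acid, had 11.8 to 13.6 CPM in male RD and 17.5 to 22.9 CPM in male HFD members, against 12.9 to 15.5 and 6.81 to 13.2 CPM in females (1.21, edgeR adjusted p = 0.0486, 0.148 without male RD replicate 3). Rnase2b, a secreted ribonuclease gene, had 14.1 to 16.8 and 17.9 to 20.7 CPM in males and 24.6 to 33.3 and 17.4 to 23.6 CPM in females (1.02, edgeR adjusted p = 0.0262).

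S100a9 (5.14) and Skint1 (1.07) followed on the positive side of this contrast and Slc39a10 (-1.23), Zranb2 (-0.97), Srrt (-0.90), Mplkip (-0.82) and Coa3 (-0.77) on the negative side, with edgeR adjusted p from 0.022 to 0.0262. These calls were less stable than that of Wfdc18. Of the 12 fits that left out 1 mouse, Coa3 was called in 7, S100a9 and Zranb2 in 6, and Rnase2b in 5. Skint1 and Srrt were called in 4, Cyp26b1 and Mplkip in 3, and Slc39a10 in 2. For Skint1 and Slc39a10 the diets overlapped in males, with log2 fold changes of 0.21 and -0.12. Zranb2 (-0.23 in males), Srrt (-0.24), Mplkip (-0.16) and Coa3 (-0.17) were lower in every male HFD mouse than in every male RD mouse and higher in every female HFD mouse than in every female RD mouse. The female difference of Zranb2 was not particular to members, with no test run elsewhere. Among female Serpinb3a-zero cells it had 29.2 to 33.5 CPM in RD and 49.9 to 59.5 CPM in HFD. Among female basal cells it had 35.9 to 40.4 and 58.6 to 68.5 CPM. In males Zranb2 overlapped between diets in both of these classes. S100a9 had a log2 fold change of 2.63 in males, at levels of 0.68, 0.71 and 1.60 CPM in RD mice, and the diets overlapped. Wfdc17 had a difference of 1.46 ± 0.29 (SE) within members and missed the threshold (edgeR adjusted p = 0.0519). Its male members had 1509.8, 980.4 and 1018 CPM in RD and 1994, 2792 and 1618 CPM in HFD, and its female members 6572, 5552 and 6529 CPM in RD and 3231, 5280 and 4834 CPM in HFD.

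Counted by lists, no gene was called in males in any list. Of 29 genes of the late cornified envelope 23 had a positive male log2 fold change (median 0.21, against a median of -0.01 and 47.9% positive over all genes tested). Lor itself had 2274, 2829 and 2816 CPM in male RD and 4201, 3452 and 4946 CPM in male HFD members, without overlap (0.72, edgeR adjusted p = 0.157). Members with Lor under 0.1% of UMIs made up 75.2%, 68.1% and 74.0% of members in male RD and 66.15%, 67.1% and 63.9% in male HFD mice. In females these shares were 86.6%, 89.0% and 81.4% in RD and 77.9%, 81.3% and 80.2% in HFD mice, so the diets overlapped in neither sex. The part of this make-up in the diet values of genes and lists was not tested. All 14 genes of the basal list were negative (median -0.45), and 0 of 14 were positive without male RD replicate 2 too. The summed basal CPM was 1100, 1483 and 939 in male RD and 612, 639 and 1252 in male HFD, so that male HFD replicate 3 lay among the RD mice. Of 20 desmosome and tight junction genes, 7 were higher in every male HFD mouse than in every male RD mouse, against 4.99% of all genes tested, among them Cgn, the gene of the junction protein cingulin (0.51, edgeR adjusted p = 0.136). Without male RD replicate 2, on the scale of log2(CPM + 1), the median of the WAP and antimicrobial list went from 0.35 to 0.19 and that of the serpins from 0.19 to -0.08. The serpin list includes Serpinb3a, whose level in members is bounded by the rule. On that scale the number of positive genes went from 11 to 12 of 17 for the WAP and antimicrobial genes and from 8 to 6 of 13 for the serpins. It went from 14 to 12 of 18 for the differentiation transcription factors, from 11 to 10 of 18 for lipid uptake and fatty acid metabolism and from 13 to 14 of 20 for the junction genes, and stayed at 22 of 29 for the envelope genes.

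In females the calls within lists, leaving out Serpinb3a because it chose the members, were S100a8 and S100a9 of 16 WAP and antimicrobial genes (median of the list -0.35), Rptn of 27 envelope genes (median 0.01) and Krt15 of 14 basal genes (median 0.13). Over all genes tested in females 0.516% were called, the median was 0.00 and 50.6% were positive. The other lists held no further call in females. Among differentiation transcription factors 6 of 18 were positive (median -0.16), against 14 of 18 in males (median 0.19). For glucose transport and glycolysis 11 of 18 were positive in females (median 0.09), and Slc5a1 had 189, 234 and 219 CPM in RD and 164, 179 and 173 CPM in HFD members (-0.35, edgeR adjusted p = 0.0968). For lipid uptake and fatty acid metabolism, 12 of 18 genes in males (median 0.08) and 10 of 17 in females (median 0.01) were positive. The medians of these lists are descriptions of few genes beside those of all genes.

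**Figure D5:**
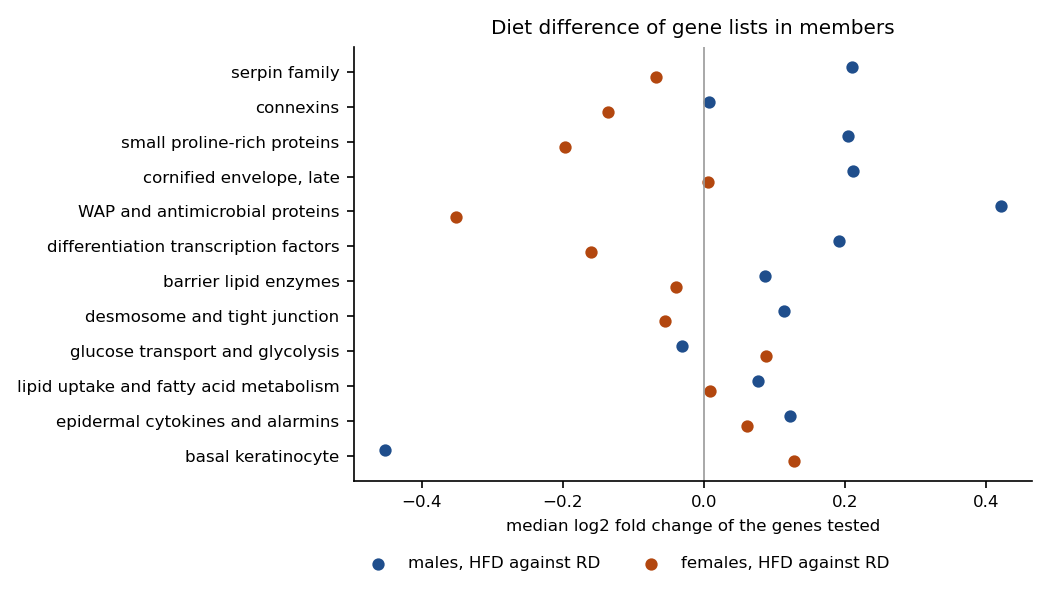
Median log2 fold change, HFD against RD, of the genes tested in each of 12 lists within members, for males and females. The serpin list includes Serpinb3a, the gene that chose the members. The WAP and antimicrobial list has 0.42 in males, a median that moves toward 0 without male RD replicate 2, and -0.35 in females, and the basal list -0.45 in males and 0.13 in females; no gene of these lists was called in males.

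Markers of Langerhans cells, melanocytes, fibroblasts and endothelial cells were low in members, while those of Krt79 migratory keratinocytes were not. For Merkel cells and sweat glands the sum was not low either, but only 1 of the 7 genes had a median of 10 CPM or more in members or Serpinb3a-zero cells. That sum therefore does not show these markers as a set. The summed CPM of 9 Langerhans cell genes was 5.03 to 15.7 per mouse, against a median of 33862 in Langerhans cells. By the rule members had no Cd74 or Cd3e UMIs, and the Langerhans class was set by Cd207 and Cd74. Low levels of Langerhans and T cell genes in members were thus partly fixed in advance and are no independent check. Melanocyte genes summed to 0.66 to 17.5 CPM, the highest in female HFD replicate 2, fibroblast genes to at most 6.27 CPM and endothelial genes to 0.25 to 18.5 CPM. Nkg7, Col3a1, Atoh1 and Emcn were at 0 in every mouse. The T cell list summed to 42.2 to 83.1 CPM, nearly all of it from Trbc2 (41.9 to 80.1 CPM), which basal cells also had (13.1 to 30.4 CPM), while Cd3g was at 0 or at most 0.29 CPM. Genes of Merkel cells and sweat glands summed to 109 to 196 CPM, against a median of 14.9 CPM in basal cells, and those of Krt79 migratory keratinocytes to 976 to 2113 CPM, against 1049 CPM in basal cells. Of the 7 Krt79 migratory genes 5 were at 10 CPM or more in members or Serpinb3a-zero cells. Against Serpinb3a-zero cells 2 of them were higher and 1 lower in members in every mouse. The sum is not split by gene here, so it does not show these markers as a set either. Heat shock and immediate early genes summed to 14919 to 17502 CPM in male RD and 15646 to 17058 CPM in male HFD members.

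Between the sexes 8938 of 12249 genes (73.0%) passed the test, 4223 of them higher in males, a share that leaves little meaning to the call of a single gene while sex and counting software go together. Apart from Xist, Ddx3y and Eif2s3y, the genes that led were Hist2h2aa1 (3.86), Hist1h1e (3.60) and Klf2 (3.52) on the male side and Nup210l (-7.73), 2610035D17Rik (-6.70), Nr6a1 (-5.54) and March3 (-4.75) on the female side. Among genes of the upper epidermis, 27 of 29 envelope genes were called higher in males, for example Cnfn with 1346 to 1682 CPM in males and 485 to 634 CPM in females. Gjb2 ranged from 506 to 820 CPM in males and from 326 to 435 CPM in females, whereas Wfdc17 and Grhl3, a transcription factor of barrier formation (24.8 to 34.7 CPM in males, 107 to 149 CPM in females), were higher in females. The share of members was 9.93% ± 2.70 in males and 5.86% ± 1.35 in females (SD, n = 6 each, two-sided exact permutation p = 0.0108), and with thinned cells 4.47% and 3.06% (exact permutation p = 0.0563).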

How the data were processed

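For each of 12 mice the authors deposited a matrix of raw UMI counts over genes and called cells. According to the file headers males were counted with Cell Ranger 6.1.0 and females with 7.2.0, while the labels name 7.2.0 for all; the reference was mm10-2020-A (GRCm38), 99.8% of whose gene identifiers were found in GENCODE M21. Intron counting is not given in the sources used here.

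Filtering to 500 to 6000 genes and 5% mitochondrial UMIs or less left 125515 of 140392 barcodes. Likely doublets stayed in, and were removed only as an alternative. Member UMIs were summed per mouse and tested by quasi-likelihood in edgeR 4.0.16 (TMM, low-count filter, Benjamini-Hochberg, threshold 0.05), with DESeq2 1.42.0 as an alternative. Scripts were tested on simulated data. Log2 fold changes are HFD against RD with SE, and CPM are plain. Levels of classes are log2 ratios of CPM + 1. Basal cells had at least 1% of UMIs from Krt5 and Krt14 and under 0.2% from Krt1 and Krt10, and Langerhans cells at least 3 Cd207 and 10 Cd74 UMIs. For thinned values each cell was cut at random to 3000 UMIs, leaving out the 76 to 1074 shallower cells of a mouse. Shares used two-sided exact permutation tests in scipy 1.17.1. Promoter sequences are from RefSeq. Alternatives were DESeq2, no low-count filter, 1 mouse left out, the replicate number as a block, at least 2 Serpinb3a UMIs, thinning, equal cells and other cell filters. Markers over all cells meeting the rest of the rule, and the split by Lor, were added after the data were seen.

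Genes were named by rule: the 5 markers; in each diet comparison up to 8 called genes per direction with the largest change, a mean of at least 10 CPM and no overlap, or without calls the 5 with the smallest p; up to 5 for the interaction (overlap not required) and for sex; and up to 15 and 10 against Serpinb3a-zero and Lce1-high cells, at 50 CPM and with the same sign in all mice. The members and the gene lists were chosen with earlier results of these data known. Some genes that this rule or a list would name are not reported here.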

Additional observations from a re-analysis of the deposited data

Results flagged for a closer look

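The diet effect differed between males and females in 32 genes (edgeR quasi-likelihood interaction, adjusted p under 0.05), a count that includes the gene that chose the members. Male minus female log2 fold changes of those named were 5.14 for S100a9, 1.57 for Wfdc18, 1.21 for Cyp26b1, 1.07 for Skint1, 1.02 for Rnase2b, -1.23 for Slc39a10, -0.97 for Zranb2, -0.90 for Srrt, -0.82 for Mplkip and -0.77 for Coa3. The share of members differed in the same contrast, by 5.52 percentage points (exact permutation of the diet within each sex, p = 0.01). All male libraries were counted with one software version and all female libraries with another, and its part in these differences was not tested. For the share of members, the levels of Gjb2, Sprr1b, Slc5a1 and Wfdc17 and the median depth of members, the gap of the most extreme mouse to its nearest neighbour stayed under Dixon's critical value at 95% confidence for 6 mice of a sex. The 6 mice pool both diets, so a diet difference widens the range and this check cannot judge a mouse within its diet group. The widest gaps were those of female HFD replicate 1 (0.62 of the range) and male RD replicate 2 (0.60 of the range), both for Sprr1b, and for depth those of female RD replicate 2 (0.48 of the range) and male RD replicate 2 (0.41 of the range).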

How the results depend on the processing

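Numbers of mice limit these comparisons: 3 against 3 cannot give an exact p below 0.1, and the members of a mouse held few UMIs of genes under 10 CPM. For diet in males, against 0 calls, DESeq2 gave 66, no filter on low counts 265, a fit with the replicate number as a block 1, equal numbers of cells 2, all 12 mice in 1 fit 8, and leaving out 1 mouse 0 to 46. For diet in females, against 60, these were 166, 587, 39 with the replicate block and 24 with equal cells, at least 2 Serpinb3a UMIs gave 18, thinning to 3000 UMIs 3, and leaving out 1 mouse 5 to 59. For the interaction, against 32, DESeq2 gave 121, no filter 458, the replicate block 11, at least 2 Serpinb3a UMIs 4, thinning 2, equal cells 19, and leaving out 1 mouse 0 to 243. Between the sexes thinning gave 4002 calls against 8938, of which 3859 were among the 8938. Thinning and equal cells reduce the UMIs; otherwise the cause was not tested. Same-numbered mice did not deviate together (correlations from -0.06 to 0.04), so the numbers do not pair the mice, and no block could be fitted for sex.

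The share by sex kept its direction but not its call with thinning (1.41 percentage points, exact permutation p = 0.0563) and over cells meeting the rest of the rule (5.16, exact permutation p = 0.0671). The diet difference of the shares within each sex kept its direction under every alternative run. Its side of the threshold says nothing of stability, since 3 against 3 cannot pass it. Of the named genes, Sprr1b changed sign in females, to -0.0031 without female RD replicate 2 and -0.12 without female HFD replicate 1, in a range of -0.12 to 0.12 over single mice left out. In females 97 of 319 values of named genes under an alternative lost the call, and in the interaction 96 of 294. Both totals include the values of Gjb2, Sprr1b, Slc5a1 and Wfdc17, which had no call to lose. Among called genes the share that lost the call was therefore higher.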

Other observations

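Hspa5, Hsp90b1 and Pdia6 encode chaperones of the endoplasmic reticulum. These 3 genes were picked after their values were seen, other chaperones were not counted, and nothing is said of chaperones as a group. Hspa5 had 241, 217 and 241 CPM in female RD and 323, 347 and 318 CPM in female HFD members (log2 fold change 0.47, edgeR adjusted p = 0.0305). Hsp90b1 had 68.4, 64.3 and 66.5 CPM against 106, 92.2 and 95.7 CPM (0.54, edgeR adjusted p = 0.0276), and Pdia6, a protein disulfide isomerase, 44.0, 41.6 and 46.0 CPM against 67.6, 57.3 and 64.1 CPM (0.50, edgeR adjusted p = 0.0442). None of the 3 overlapped between diets in females. Without female RD replicate 1 there were 5 calls in females, Krt15, S100a9, Slc39a10 and Skint1 among them, so that at least 2 of these 3 genes lost the call. In Serpinb3a-zero and basal cells Hspa5 also did not overlap between the diets in females, with no test run there: it had 205 to 219 CPM in RD and 274 to 289 CPM in HFD among Serpinb3a-zero cells, and 220.3 to 253 CPM against 272 to 309 CPM among basal cells. Among female Langerhans cells the diets overlapped, with 387 to 450 CPM in RD and 447 to 600 CPM in HFD. In males Hspa5 had 275 to 343 CPM in RD and 334 to 396 CPM in HFD members, and the interaction was not called for any of the 3 (edgeR adjusted p = 0.394 for Hspa5, 0.0732 for Hsp90b1 and 0.187 for Pdia6).

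Hlf and Skint1 were lower in female HFD mice among Serpinb3a-zero cells too, without overlap and with no test. Hlf had 114 to 126 CPM in RD and 67.2 to 100.2 CPM in HFD among female Serpinb3a-zero cells, and Skint1 44.0 to 48.0 CPM against 25.1 to 31.8 CPM. In female basal cells Hlf had 87.4 to 110 CPM against 60.5 to 78.2 CPM, while Skint1 overlapped, with 4.29 to 5.00 CPM against 2.72 to 5.27 CPM. Both overlapped between diets in female Langerhans cells.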
